A study of Mus musculus with 2 samples.

Results

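The genes described here are Slc7a1, Xpr1, Slc20a1 and Slc20a2, whose products are the cell-surface receptors through which murine leukemia viruses and related gammaretroviruses enter cells. The 4 genes were taken by symbol from 21474 protein-coding genes in the deposited gene tables, a choice made with earlier results of these data known. RNA was measured by paired-end sequencing of polyA libraries from leukemia stem cells of the mouse, infected with Friend virus, a retrovirus complex that causes erythroleukemia. Per the labels, the cells were positive for CD34, CD133, Kit and Sca1 and came from adults of 10 to 12 weeks, with males and females pooled. The labels ask for a mouse strain with the sensitive allele of Fv2 (Fv2s) and do not name the strain. There was 1 group with 2 biological replicates and no uninfected or other control, so values are given per replicate and no condition is compared. The replicates have different biosamples but 1 donor record, and part of their spread may be technical.

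Gammaretroviruses are sorted into host-range classes by the receptor that their envelope protein binds. Ecotropic viruses, Friend murine leukemia virus among them, use CAT-1, the arginine and lysine transporter encoded by Slc7a1. Polytropic viruses and, in suitable hosts, xenotropic viruses use the phosphate exporter encoded by Xpr1. Amphotropic viruses use the sodium-phosphate importer PiT-2, encoded by Slc20a2, and viruses of the gibbon ape leukemia type use the related importer PiT-1, encoded by Slc20a1, of suitable host species. All 4 proteins are multi-pass membrane transporters with a nutrient function apart from virus entry, and mice without Slc7a1 or Slc20a1 have defects of red cell formation.

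The place of envelope contact on the ecotropic receptor lies in the third extracellular loop of CAT-1, and the messenger sequence of that loop is shown because it distinguishes the receptor of ecotropic viruses. It is from the GENCODE M21 transcript Slc7a1-201 on GRCm38, minus strand, spanning an exon junction between chr5:148342805-148345822. Capitals mark the codons of a tyrosine at residue 235 and a glutamate at residue 237, both known for their part in envelope binding. The coding sequence of Slc7a1-201 spans 622 residues and the transcript has 13 exons.
Slc7a1 loop: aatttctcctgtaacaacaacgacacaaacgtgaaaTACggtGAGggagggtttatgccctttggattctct

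For Slc20a1 and Xpr1 the results turn on which annotated transcript the authors' estimates assign the fragments to. Stretches in which some of these transcripts differ are therefore shown as well. The first is the start of Slc20a1-203, a retained-intron transcript of 712 bases on GRCm38, plus strand, chr2:129206320-129206393. Capitals mark the 47 bases that lie outside the coding transcripts Slc20a1-201 and Slc20a1-202. The other 665 bases of Slc20a1-203 fall in exons 6 to 8 of Slc20a1-201. The second is from Slc20a1-205, a processed transcript of 1989 bases without a coding annotation, plus strand, across a junction between chr2:129204129-129204305. There the capitals mark the first 60 of 859 bases that lie outside Slc20a1-201 and Slc20a1-202.
Slc20a1-203: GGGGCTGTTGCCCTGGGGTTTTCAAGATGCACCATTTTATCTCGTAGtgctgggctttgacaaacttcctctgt
Slc20a1-205: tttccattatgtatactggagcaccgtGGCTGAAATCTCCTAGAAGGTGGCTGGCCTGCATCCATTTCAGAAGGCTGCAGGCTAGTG

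The coding transcripts of Xpr1 part near the end of the coding sequence, on the minus strand of GRCm38. Xpr1-201 is shown across the junction between chr1:155281010-155283239 and Xpr1-202 at chr1:155283200-155283239, which reads on past the splice site. The shared bases are in lower case, and capitals mark what follows them up to and including the stop codon. Xpr1-201 codes for 695 residues and Xpr1-202 for 679, of which the first 676 are shared. Outside its coding sequence Xpr1-201 has 5404 bases, against 713 in Xpr1-202.
Xpr1-201: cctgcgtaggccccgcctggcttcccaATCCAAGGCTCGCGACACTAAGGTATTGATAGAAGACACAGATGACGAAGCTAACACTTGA
Xpr1-202: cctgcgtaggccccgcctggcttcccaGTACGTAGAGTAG

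All 4 receptor genes were detected, at 1 TPM or more in both libraries, which holds for 41.6% of protein-coding genes. TPM is the deposited level per length, relative to every row of a library's table. Slc7a1 and Slc20a1 were the most abundant of the 4, Slc20a2 came next and Xpr1 was lowest, in both libraries. The order within the leading pair differed between the libraries, and Slc20a1 was the lowest of the 4 in replicate 2 when coding transcripts alone were counted. The total of all expected counts was 23575315 for replicate 1 and 22541765 for replicate 2.

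In bulk RNA, more cells of a type and more RNA per cell cannot be told apart. The genes of the sort markers named in the labels were scarce and those of red cell precursors abundant. The 4 sort markers summed to 5.12 TPM in replicate 1 and 3.48 TPM in replicate 2, with 2 of 4 detected in both, and Prom1, the gene of CD133, had 3 counts in replicate 1 and 0 in replicate 2. All 12 erythroid markers were detected, with sums of 113579 TPM in replicate 1 and 223947 TPM in replicate 2. Macrophage markers, 7 of 8 detected, summed to 1022 and 1375 TPM in replicates 1 and 2. C1qa, C1qb, C1qc and Axl were higher in replicate 2, while Cd68, Csf1r, Adgre1 and Vcam1 were higher in replicate 1, as with Cd68 at 78.7 and 25.5 TPM in replicates 1 and 2. B lineage markers, 5 of 6 detected, summed to 695 TPM in replicate 1 and 292 TPM in replicate 2. The sums in replicates 1 and 2 were 95.5 and 91.0 TPM for T and NK cells (4 of 6 detected), 57.0 and 32.2 TPM for neutrophils (6 of 7), 376 and 366 TPM for megakaryocytes (4 of 6) and 128 and 125 TPM for endothelial and stromal cells (4 of 7, with Dcn at 0 counts). Most of the last 2 sums came from 1 gene each. Gp5 had 283 and 293 TPM of the megakaryocyte sums in replicates 1 and 2. Plvap had 108 and 111 TPM of the endothelial and stromal sums. These near-equal sums thus say little on the other markers of their lists. Vpreb1 was at 0 counts in replicate 1 and Pf4 in replicate 2. Their part in the levels of the receptor genes and in the differences between the libraries was not tested.

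The ecotropic receptor gene Slc7a1 (ENSMUSG00000041313.10, chr5:148327410-148399904, minus strand, mm10) had 55.15 TPM in replicate 1 and 20.57 TPM in replicate 2, from 7677 and 2875 expected counts. Its mean was 37.9 ± 24.5 TPM (SD, n = 2), and its level lay at the 89.9 percentile of protein-coding genes in replicate 1 and at the 83.8 percentile in replicate 2. Replicate 1 was thus the higher library by 2.68-fold on deposited TPM. On counts scaled by TMM, edgeR's trimmed-mean normalisation, it was higher by 1.91-fold, a log2 ratio of 0.93 with a 95% interval of 0.87 to 0.99. All counts of the gene were assigned to 1 coding transcript of 7179 bases, Slc7a1-201, and the other 2 annotated transcripts, also coding, had 0 counts in both libraries.

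Slc20a1 (ENSMUSG00000027397.10, chr2:129198764-129211616, plus strand), the gene of PiT-1, had 51.26 TPM in replicate 1 and 47.98 TPM in replicate 2, with a mean of 49.6 ± 2.32 TPM (SD, n = 2). Its level lay at the 89.4 percentile in replicate 1 and the 90.5 percentile in replicate 2. The counts were further apart than these levels, at 1634 in replicate 1 and 675 in replicate 2, a TMM-scaled ratio of 1.73-fold. The log2 ratio of the counts was 0.79 (0.66 to 0.92), that of TPM 0.10. TPM divides counts by the effective length, and the authors' effective length of the gene was 1614 bases in replicate 1 and 709 bases in replicate 2, a 2.28-fold difference.

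Slc20a2 (ENSMUSG00000037656.8, chr8:22476788-22569612, plus strand), the gene of the amphotropic receptor PiT-2, had 14.29 TPM in replicate 1 and 14.89 TPM in replicate 2. The mean was 14.6 ± 0.424 TPM (SD, n = 2), at the 77.1 and 81.1 percentiles of replicates 1 and 2. It was the 1 receptor gene with fewer counts in replicate 1, with 993 there and 1037 in replicate 2, a log2 count ratio of −0.55 (−0.67 to −0.42). Its table entry held 1 transcript, Slc20a2-201, which is coding and has 11 exons and 3649 bases. From the translated coding sequences, PiT-1 with 681 residues and PiT-2 with 656 had 403 identical residues among 636 aligned, 63.4%.

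Xpr1 (ENSMUSG00000026469.10, chr1:155275701-155417415, minus strand), the gene of the polytropic receptor, had 4.75 TPM in replicate 1 and 3.02 TPM in replicate 2. The mean was 3.88 ± 1.22 TPM (SD, n = 2), and the level lay at the 65.8 and 66.1 percentiles of replicates 1 and 2. These levels rested on 572 and 189 counts, the fewest of the 4 genes in each library. Replicate 1 was higher by 2.16-fold on TMM-scaled counts, a log2 ratio of 1.11 (0.87 to 1.36), and by 1.57-fold on TPM. The effective length of the gene was 6097 bases in replicate 1 and 3151 bases in replicate 2, a 1.94-fold difference.

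**Figure D1:**
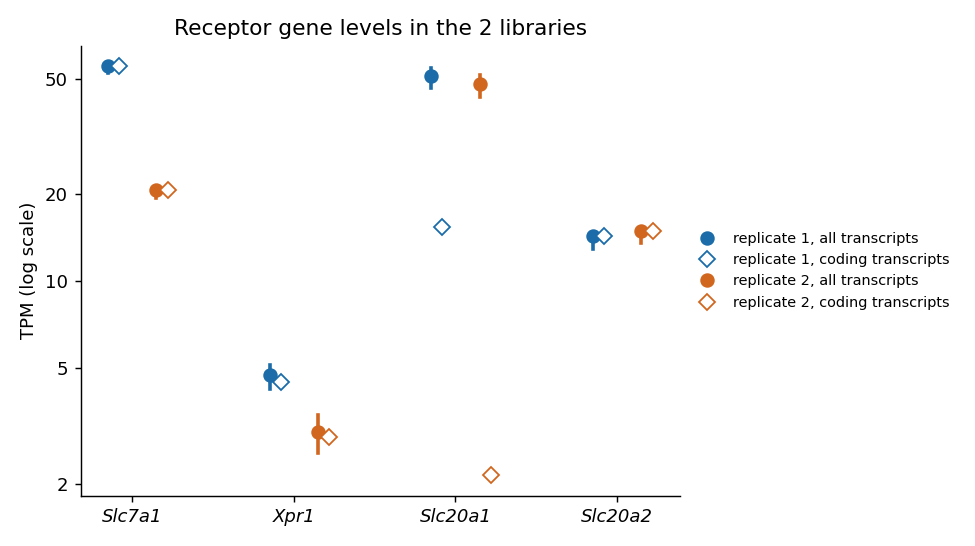
Levels of the 4 receptor genes in TPM (log axis) in replicate 1 and replicate 2. Filled circles are the deposited gene TPM, bars are the authors' interval, which was made for their posterior mean and can lie off the circle, and open diamonds are the TPM of transcripts annotated as coding. The filled circles of Slc20a1 lie side by side at 51.26 and 47.98 TPM, while its diamonds lie far apart at 15.36 and 2.140 TPM.

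The ranges of Slc7a1 and Slc20a1 over the libraries overlapped, so the order of these neighbours did not hold beyond the spread. The ranges of Slc20a2 and Xpr1 overlapped with no other member. The authors' intervals for a single library were narrower than the difference between libraries for Slc7a1, at 52.2 to 54.6 TPM in replicate 1 and 19.3 to 20.8 TPM in replicate 2. For Slc20a1 they were 46.3 to 54.5 TPM and 43.1 to 51.3 TPM in replicates 1 and 2, and these overlap. The intervals of Slc20a2, 12.9 to 14.7 TPM in replicate 1 and 13.5 to 15.3 TPM in replicate 2, overlap as well. Those of Xpr1, 4.23 to 5.14 TPM and 2.55 to 3.45 TPM in replicates 1 and 2, do not.

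A gene was called apart between the libraries when the 95% interval of its count ratio, an exact binomial interval that covers counting error only, lay wholly outside 2-fold. Among 11708 protein-coding genes with at least 20 counts, 1721 were apart with the higher value in replicate 1, 14.7%, and 1004 with the higher value in replicate 2, 8.58%. None of the 4 receptor genes was apart. Of the 12 erythroid markers, 6 were apart with the higher value in replicate 1 and 2 with the higher value in replicate 2. Of the 8 macrophage markers, 2 were apart with the higher value in replicate 1 and 1 with the higher value in replicate 2. Among the 7 neutrophil markers, whose summed TPM was higher in replicate 1, 1 was apart in that direction and 2 in the other. Of 3 sort markers tested 1 was apart, Cd34, with 83.0 counts in replicate 1 and 13.0 counts in replicate 2. B lineage markers had 1 of 5 tested apart and endothelial and stromal markers 1 of 6, both higher in replicate 1. No gene was apart among the T and NK markers or the megakaryocyte markers, with 5 tested in each list. The interval of Slc7a1 ended just inside 2-fold and that of Xpr1 reached across it. With 1 library on each side these ratios compare libraries and no condition.

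The outcome for 3 of the 4 genes depended on the scaling of the libraries. When total expected counts replaced TMM, the log2 ratios became 1.35 for Slc7a1, 1.53 for Xpr1 and 1.21 for Slc20a1, all apart, and −0.13 for Slc20a2, not apart. That scaling moved the median log2 ratio of the tested genes to 0.47, against 0.05 with TMM. It placed 88.0% of the calls in replicate 1 (2703 higher there and 370 higher in replicate 2), against 63.2% with TMM. Relative to the median gene, the log2 count ratios under both scalings were 0.88 for Slc7a1, 1.06 for Xpr1, 0.74 for Slc20a1 and −0.60 for Slc20a2. That they are equal was fixed in advance, because a change of scaling shifts the log2 count ratios of all genes by nearly the same amount. On deposited TPM, where the median gene had a log2 ratio of 0.44, the ratios relative to it were 0.98 for Slc7a1, 0.21 for Xpr1, −0.35 for Slc20a1 and −0.50 for Slc20a2. The direction for Slc20a1 relative to the median gene thus flipped between counts and TPM.

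**Figure D2:**
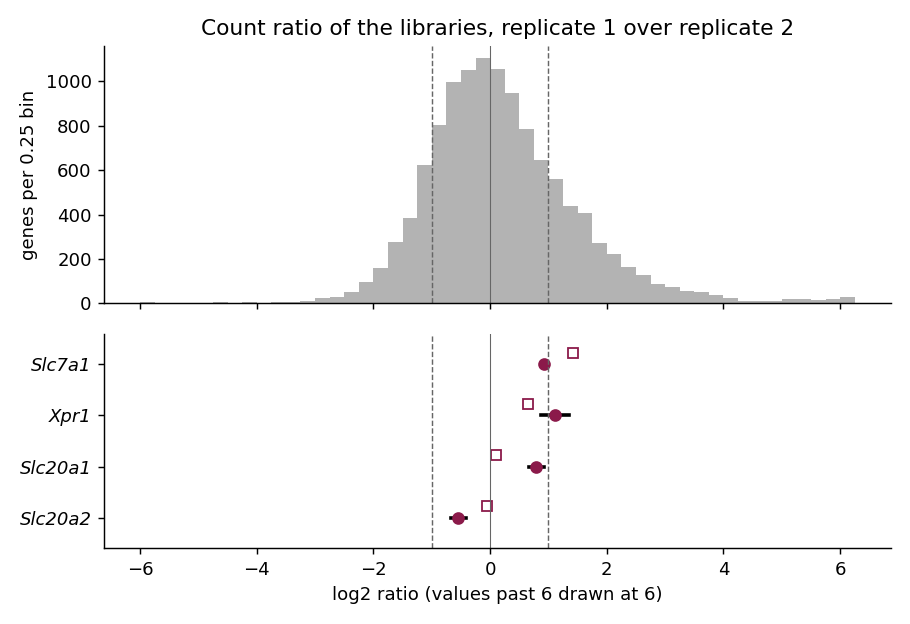
Log2 count ratio of replicate 1 over replicate 2. The upper panel is the histogram of 11708 protein-coding genes in bins of 0.25; in the lower panel circles are the TMM-scaled count ratios of the receptor genes with 95% binomial intervals, and open squares are ratios of deposited TPM. Dashed lines mark 2-fold; the circles of Slc7a1, Xpr1 and Slc20a1 lie to the right of 0 at 0.93, 1.11 and 0.79, and that of Slc20a2 lies to the left at −0.55.

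The transcript tables showed which annotated RNAs carried the Slc20a1 counts. The gene has 8 annotated transcripts, 3 of them coding, and 6 had counts. Slc20a1-201, the main coding transcript of 3316 bases and 11 exons, had 925 counts in replicate 1 and 72.5 counts in replicate 2. Slc20a1-202, which codes for the same protein, had 39.5 counts in replicate 1 and 60.8 counts in replicate 2. The retained-intron transcript Slc20a1-203 had 285 counts in replicate 1 and 468 counts in replicate 2. The non-coding Slc20a1-205 had 368 counts in replicate 1 and 0 counts in replicate 2, where 0 counts allow up to 3 counts.

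As a share of the TPM of its gene, Slc20a1-203 led in both libraries, with 48.5% in replicate 1 and 86.0% in replicate 2, a mean of 67.3% ± 26.5 (SD, n = 2). Its level was 24.9 TPM (authors' interval 20.1 to 27.9) in replicate 1 and 41.3 TPM (34.8 to 43.9) in replicate 2. Slc20a1-201 made up 28.7% of the total TPM of Slc20a1 in replicate 1 and 2.40% in replicate 2, at 14.7 TPM (12.5 to 15.5) and 1.15 TPM (0.363 to 1.73). Slc20a1-205 held 19.6% in replicate 1, at 10.0 TPM (7.70 to 11.3), and 0% in replicate 2, where the authors' interval reached 0.547 TPM. By counts, which do not weight short transcripts up, Slc20a1-201 led replicate 1 with 56.6% of the gene's counts and Slc20a1-203 led replicate 2 with 69.4%, against 17.4% for Slc20a1-203 in replicate 1 and 10.7% for Slc20a1-201 in replicate 2.

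**Figure D3:**
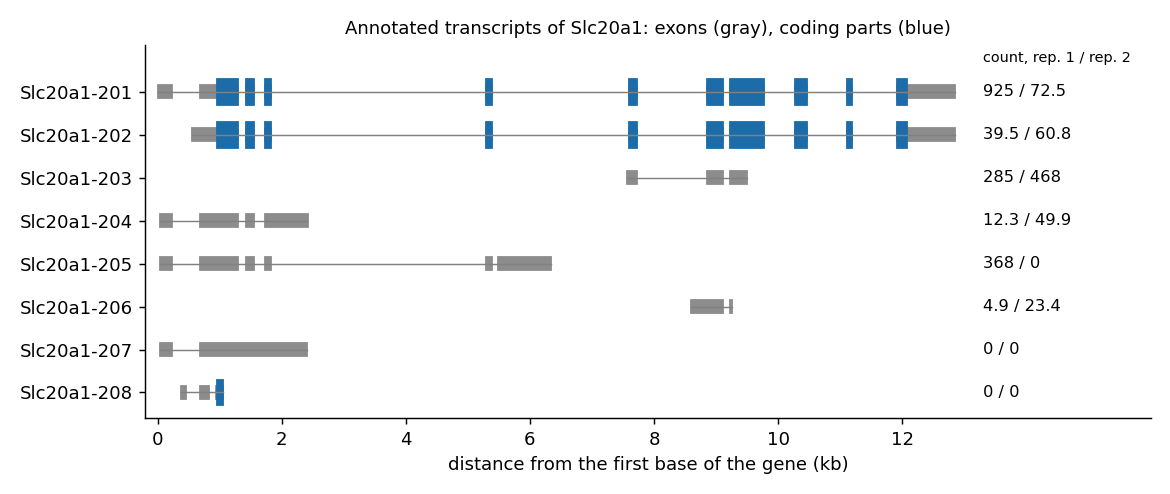
Annotated transcripts of Slc20a1 against the distance from the first base of the gene in kb, with exons in gray and coding parts in blue; numbers at the right are the expected counts in replicate 1 and replicate 2. Slc20a1-203 lies inside the coding transcripts, and its 285 and 468 counts stand beside 925 and 72.5 counts of Slc20a1-201.

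Counting coding transcripts alone, a measure added after the values had been seen, Slc20a1 had 15.36 TPM in replicate 1 and 2.140 TPM in replicate 2, which is 30.0% and 4.46% of the total for the gene. The coding mean was 8.75 ± 9.35 TPM (SD, n = 2), and replicate 1 was higher by 7.18-fold. The coding counts were 964.4 in replicate 1 and 133.3 in replicate 2, a TMM-scaled log2 ratio of 2.37 (2.11 to 2.65), which was apart. That interval covers counting error and not the assignment of fragments among transcripts, most of whose bases are shared. The near-equal gene TPM of Slc20a1 was thus the sum of unlike transcript levels in the 2 libraries.

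For Xpr1 different coding transcripts led in the libraries. Of its 7 annotated transcripts, 3 are coding and 6 had counts. Xpr1-201, of 7492 bases, had 491 counts in replicate 1 and 50.1 counts in replicate 2. Xpr1-202, of 2753 bases, had 50.4 counts in replicate 1 and 133 counts in replicate 2. In TPM, Xpr1-201 had 3.37 (2.91 to 3.54) in replicate 1 and 0.340 (0.228 to 0.438) in replicate 2, while Xpr1-202 had 0.970 (0.272 to 1.36) in replicate 1 and 2.56 (1.92 to 2.85) in replicate 2.

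Xpr1-201 therefore made up 71.1% of the Xpr1 total in replicate 1 and 11.4% in replicate 2, a mean of 41.2% ± 42.2 (SD, n = 2). Xpr1-202 held 20.5% in replicate 1 and 84.8% in replicate 2, a mean of 52.6% ± 45.5. The shares of counts had the same order, with 85.8% for Xpr1-201 and 8.81% for Xpr1-202 in replicate 1, and 26.5% for Xpr1-201 and 70.3% for Xpr1-202 in replicate 2. The third coding transcript, Xpr1-203, which lacks 195 coding bases within residues 436 to 501 of Xpr1-201, had 12.9 counts in replicate 1 and 0 in replicate 2. Unlike Slc20a1, Xpr1 had 94.7% of its TPM in coding transcripts in replicate 1 and 96.0% in replicate 2, at 4.500 and 2.900 TPM.

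**Figure D4:**
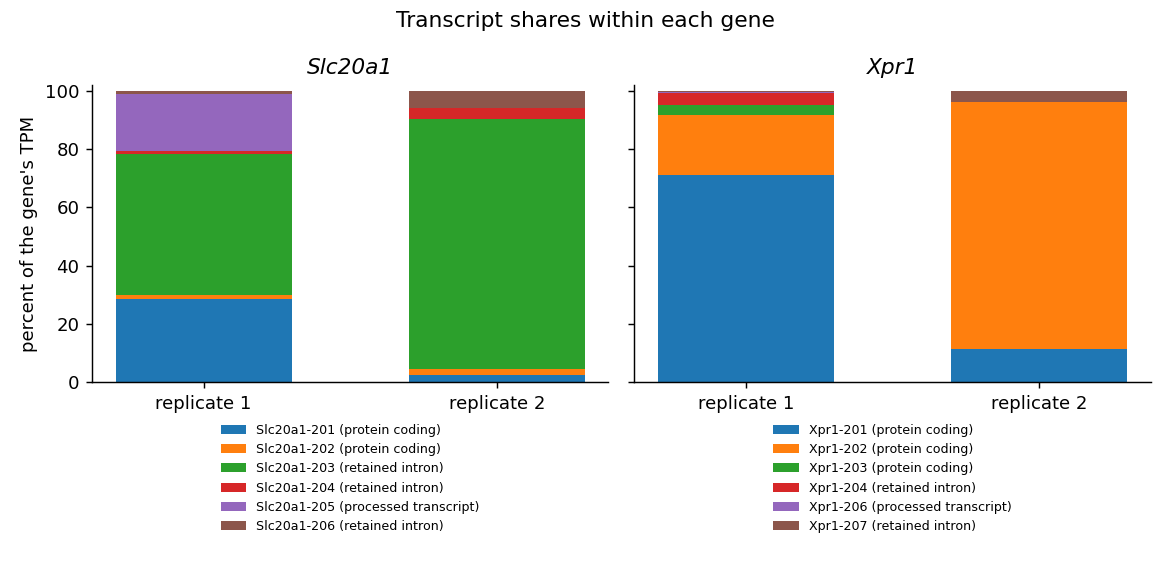
Share of each annotated transcript in the TPM of Slc20a1 (left) and Xpr1 (right), in percent, as stacked bars for replicate 1 and replicate 2. The green segment of Slc20a1-203 is 48.5% in replicate 1 and 86.0% in replicate 2, and the blue segment of Xpr1-201 is 71.1% in replicate 1 and 11.4% in replicate 2.

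Such shifts were common across the tables. Of 6659 detected protein-coding genes with several transcripts, 69.8% were led by 1 and the same transcript in each library, as Slc20a1 and Slc7a1 did, and 2008 genes had different ones, as Xpr1 did. A retained-intron transcript led in both libraries in 8.08% of these genes, Slc20a1 among them. The mean effective length was over 1.5-fold longer in replicate 1 in 11.4% of them, which included Slc20a1 and Xpr1, and over 1.5-fold longer in replicate 2 in 4.54%. The median share of TPM in coding transcripts was 92.8% in replicate 1 and 93.5% in replicate 2. Under 50% was seen in 26.7% of these genes in replicate 1 and 30.0% in replicate 2, and under 5% in 4.37% and 7.09% of them. Slc20a1 was under the first limit in both libraries and under the second in replicate 2.

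When coding transcripts alone are set side by side, the order of the receptor genes in replicate 1 was Slc7a1 at 55.15 TPM, Slc20a1 at 15.36, Slc20a2 at 14.29 and Xpr1 at 4.500. In replicate 2 it was Slc7a1 at 20.57 TPM, Slc20a2 at 14.89, Xpr1 at 2.900 and Slc20a1 at 2.140. The gene of the ecotropic receptor was first on this scale in both libraries, and the range of Slc20a1 enclosed those of Slc20a2 and Xpr1. For Slc7a1 and Slc20a2, whose counts all fell in coding transcripts, this measure equals the gene TPM.

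The counts of Slc20a1 can hold reads of an antisense neighbour, because the labels do not state whether the libraries keep the strand. The antisense gene 9830144P21Rik (chr2:129205958-129230579, minus strand) overlaps 315 exonic bases of Slc20a1-201, and had 3 counts in replicate 1 and 4 counts in replicate 2. Of the 25-base words in the transcripts of Slc20a1, 11.3% also occurred in other genes, 407 of 640 of them in that antisense gene. The corresponding shares were 1.25% for Slc7a1, 1.45% for Xpr1 and 2.64% for Slc20a2. Reads of these stretches cannot be told apart by sequence.

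The other genes of the CAT branch of the Slc7 family, transporters of cationic amino acids and their relatives, were scarce next to Slc7a1. None of the 4 reached 1 TPM in both libraries. Slc7a4 had 1.59 TPM in replicate 1 and 0.540 TPM in replicate 2. Slc7a3, with 0.1 and 0.170 TPM, and Slc7a2, with 0.1 and 0.07 TPM in replicates 1 and 2, lay lower, and Slc7a14 had 0 counts in both libraries. The 1 gene with enough counts for a ratio, Slc7a4, was not apart, at a log2 ratio of 1.11 (0.49 to 1.79).

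The heteromeric amino acid transporters, in which a light chain pairs with the heavy chain encoded by Slc3a2 or Slc3a1, include carriers of arginine other than CAT-1. Of 9 genes 4 were detected in both libraries and none of 6 tested was apart. Slc7a5, the light chain of a transporter of large neutral amino acids, had 459 TPM in replicate 1 and 63.2 TPM in replicate 2, from 10878 and 4206 counts. The scaled log2 ratio of these counts was 0.89 (0.83 to 0.94), a smaller difference than that in TPM. Slc3a2 had 76.0 TPM in replicate 1 and 58.8 TPM in replicate 2. Slc7a8, another neutral amino acid carrier, had 18.7 and 19.1 TPM, and Slc7a7, a carrier of arginine and lysine, had 5.64 and 1.79 TPM in replicates 1 and 2. Slc7a9 had 0 counts in both libraries.

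Of 7 enzymes that use arginine or ornithine or make them, 3 were detected in both libraries. Odc1, ornithine decarboxylase of polyamine synthesis, had 131 TPM in replicate 1 and 79.7 TPM in replicate 2. Asl had 7.18 and 7.88 TPM and Ass1 1.36 and 1.46 TPM in replicates 1 and 2, both enzymes of arginine synthesis. Oat, ornithine aminotransferase, had 3.50 TPM in replicate 1 and 0.650 TPM in replicate 2 and was the 1 gene of 5 tested that was apart, with a log2 ratio of 1.93 (1.33 to 2.61). Arg1 had 0 counts in both libraries.

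Of 9 genes of phosphate transport and sensing, 5 were detected in both libraries and 1 of 6 tested was apart. Slc25a3, the mitochondrial phosphate carrier, had 433 TPM in replicate 1 and 459 TPM in replicate 2. Ip6k1 and Ip6k2, kinases that make the inositol pyrophosphates sensed by the domain at the start of the Xpr1 protein, were next: Ip6k1 had 67.2 and 69.8 TPM in replicates 1 and 2, and Ip6k2 24.6 and 19.7 TPM. Ppip5k1, a further kinase of that path, had 5.98 TPM in replicate 1 and 5.07 TPM in replicate 2. The gene apart was Kidins220, whose human orthologue encodes a binding partner of XPR1, with 920 counts in replicate 1 and 110 counts in replicate 2. Of the other family of sodium-phosphate importers, Slc34a1 and Slc34a2 had at most 5 counts in a library and Slc34a3 had 0 in both.

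Mouse orthologues of genes that serve as receptors of other retroviruses, in mice or other species, were detected in 7 of 10 cases. Ly6e, whose product is the mouse receptor of the placental envelope protein syncytin-A, had 350 TPM in replicate 1 and 161 TPM in replicate 2. Slc1a5, the neutral amino acid transporter whose human orthologue admits type D retroviruses, had 109 and 56.2 TPM in replicates 1 and 2. Hyal2, whose human orthologue is a receptor of the jaagsiekte sheep retrovirus, had 92.8 and 65.4 TPM in replicates 1 and 2. Slc19a2, a thiamine transporter gene whose feline orthologue admits a feline leukemia virus, had 45.7 and 37.6 TPM. Of 8 tested, 1 was apart, Slc5a3, a myo-inositol transporter, with 24.9 counts in replicate 1 and 1.03 counts in replicate 2, a log2 ratio of 3.69 (1.55 to 9.52).

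Among 8 genes of envelope processing and virus entry, 5 were detected in both libraries. Furin, the protease that cleaves the envelope precursor, had 190 TPM in replicate 1 and 219 TPM in replicate 2. Ctsb, cathepsin B, had 54.5 and 39.7 TPM in replicates 1 and 2. Of the interferon-induced membrane proteins that restrict virus fusion, Ifitm3 had 11.7 TPM in replicate 1 and 14.6 TPM in replicate 2, while Ifitm2 had 82.7 and 14.5 TPM. Ifitm2 and Ifitm1 were the 2 genes of 7 tested that were apart, both higher in replicate 1, at log2 ratios of 2.04 (1.78 to 2.31) and 2.40 (1.54 to 3.50). The genes apart in this list and in those of the arginine enzymes (1 of 5), phosphate genes (1 of 6) and other receptors (1 of 8) were all higher in replicate 1, as were 14.7% of all tested genes, against 8.58% higher in replicate 2. With so few genes tested per list, these counts show nothing particular to the lists. Kidins220, Slc5a3 and Ifitm1 are named because their values put them past the limit.

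The host partners of the Friend spleen focus-forming virus envelope protein are the erythropoietin receptor Epor and the short form of the receptor kinase Mst1r, the product of Fv2. Epor had 655 TPM in replicate 1 and 288 TPM in replicate 2. Mst1r, taken over all its transcripts and not its short form alone, had 22.0 and 11 TPM in replicates 1 and 2. Its counts were closer, at 777 in replicate 1 and 665 in replicate 2, and their scaled log2 ratio of −0.26 (−0.41 to −0.11) had the opposite direction to TPM. Neither gene was apart. The levels of all 4 entry receptor genes were below that of Epor in each library. Xpr1 was also below Mst1r in both libraries, and Slc20a2 was below Mst1r in replicate 1 only.

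**Figure D5:**
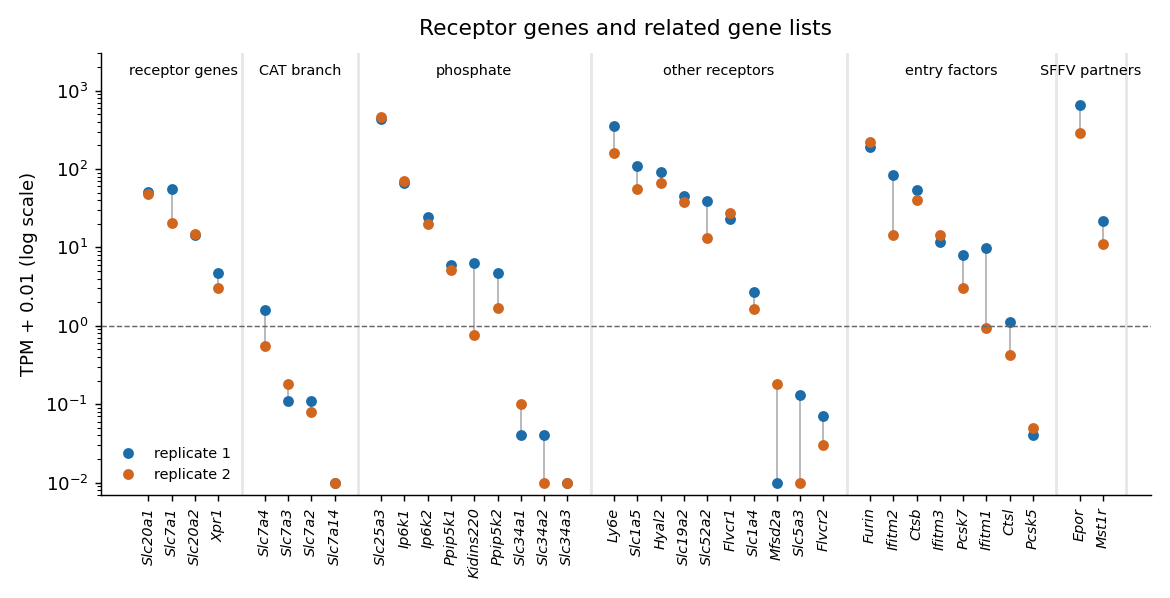
TPM + 0.01 (log axis) of the receptor genes and of related gene lists, with a line joining replicate 1 and replicate 2 of each gene; the dashed line marks 1 TPM. The receptor genes lie between 3.02 and 55.15 TPM, above all genes of the CAT branch and below Epor, at 655 and 288 TPM.

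Over the 11708 tested genes the median log2 ratio was 0.05, and the medians of the lists were −0.32 for the heteromeric transporters, 0.67 for the arginine and ornithine enzymes and 0.16 for the phosphate genes. They were 0.58 for the orthologues of other receptors, 0.90 for the entry genes and 0.86 for the 4 receptor genes. Among solute carrier genes together with Xpr1, 135 of 343 were detected, and ranks are given by TPM within each library. In replicate 1 Slc7a1 ranked 28, Slc20a1 29, Slc20a2 73 and Xpr1 107, and in replicate 2 Slc20a1 ranked 24, Slc7a1 46, Slc20a2 53 and Xpr1 106. On coding TPM Slc20a1 ranked 59 in replicate 1 and 105 in replicate 2, and Slc7a1 24 and 35.

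The genes whose pair of levels lay closest to each receptor gene were sought by distance in log2(TPM + 1) over the 2 libraries, which is a description of 2 points. They were Tap1 and Vamp8 (52.3 and 20.6 TPM in replicates 1 and 2 for the second) for Slc7a1, at distances of 0.069 and 0.076, with 37 genes within 0.25. For Slc20a1 they were Ep300 (51.7 and 46.8 TPM) and Armc10, with 84 genes within that distance. For Slc20a2 they were Zfyve27 and Pi4k2a, with 135 genes, and for Xpr1 Herc2 and Rbm4b, with 131. At 2 libraries many genes share such a pattern.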

How the data were processed

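PolyA RNA of leukemia stem cells was sequenced in 2 libraries of 1 group. Per the file headers and the readme that goes with the tables, the authors made 1 gene and 1 transcript table per library on mm10 with GENCODE M4 annotation; which programs aligned the reads and estimated the counts is not given in the sources used here. Expected counts, as deposited, are estimated fragments that need not be whole and were rounded. The deposited TPM and FPKM are normalised by length and depth; the deposited percent is a transcript's share of its gene's TPM. The authors' interval bounds, on the signal scale of TPM, have no stated level and belong to their posterior mean. By identifier without version, 42462 of 43346 Ensembl rows matched GENCODE M21, which gave symbols, gene types, positions and, with GRCm38, sequences.

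Ratios are replicate 1 over replicate 2 of counts of protein-coding genes, scaled by TMM in edgeR 4.0.16 (R 4.3.3), with 0.5 as prior count and 95% intervals from the exact binomial distribution. With a single group, p-values were not computed; the common biological coefficient of variation was 0.537. Simulated data were used to test the rule for calling genes apart. They held counting error only and planted changes well past 2-fold, so they do not cover spread between replicates or changes near the limit. Members and lists were chosen with earlier results of these data known. From each of 16 lists the text names up to 4 most abundant genes by mean TPM and those at 0 counts in both libraries, and for each receptor gene the 2 nearest genes that are not numbered predictions or clones; marker lists are given as sums, and other genes named (among them the macrophage markers, Prom1, Vpreb1 and Pf4) were chosen after their values were seen. Alternatives were DESeq2 1.42.0 size factors, total counts, other filters, folds and prior counts, FPKM, posterior means, TPM over nuclear protein-coding genes, and each library alone. The rest was done in Python 3.11.15 (scipy 1.17.1, numpy 2.4.6, biopython 1.88, pandas 2.3.3, matplotlib 3.10.9).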

Additional observations from a re-analysis of the deposited data

How the results depend on the processing

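Of 70 values under alternatives other than leaving out a library, 54 were scored as unchanged. For ratios this meant keeping their sign and side of the limit, and for levels and shares moving by no more than the spread. For numbers of genes it meant staying within 1.5-fold of the main value. None of the ratios changed sign. Relative to the median gene, however, Slc20a1 went from 0.74 on counts to −0.35 on deposited TPM. Another 26 values left out a library, which with 2 libraries cannot move a mean beyond their SD and so shows nothing on stability: the coding mean of Slc20a1 was then 2.14 or 15.4 TPM and the share of Xpr1-201 11.4% or 71.1%. With total expected counts as scaling, the log2 ratios passed 2-fold for Slc7a1 (1.35), Xpr1 (1.53) and Slc20a1 (1.21), and 2703 genes were apart with the higher value in replicate 1 and 370 in replicate 2. The Slc7a1 ratio of deposited TPM was 1.42. With a limit of 1.5-fold, 2691 genes were higher in replicate 1 and 2169 in replicate 2. Mean levels moved beyond the spread for Slc20a1 with FPKM (42.6) and TPM over nuclear protein-coding genes (55.6), and for Slc20a2 with FPKM (12.5), posterior mean TPM (14.1) and nuclear protein-coding TPM (16.3). The posterior mean share of Slc7a1-201 was 99.5%. With coding transcripts alone, chosen after seeing the data, Slc20a1 had a mean of 8.75 TPM and a log2 ratio of 2.37, which was apart. Apart from these changes of unit or of the transcripts counted, the cause was not tested. No paired analysis was possible because there was 1 group. With 2 libraries, depth limits Xpr1 most, at 189 counts in replicate 2, and intervals cover counting error only.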
